A study of Mus musculus with 12 samples.

Results

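The natural killer (NK) cells described here are the 801 cells that the authors' deposited annotation places in cluster 9 and labels as NK cells. They are 801 of 11687 NK-labelled cells and of 45477 annotated cells in all. Control mice 1 to 3 gave 170, 254 and 197 of them, and CAL-101 mice 1 to 3 gave 96, 33 and 51. They were set against the 7471 NK-labelled cells of cluster 0, the largest NK cluster, and for the surface proteins also against the 1877 of cluster 7.

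NK cells are innate lymphocytes that kill stressed or transformed cells by releasing perforin and granzymes, and that secrete interferon gamma and chemokines. Their killing is set by the balance of activating receptors, such as NKp46 (Ncr1) and NK1.1 (Klrb1c), against inhibitory receptors of the Ly49 family that read MHC class I. In tumours, NK cells range from circulating-type cells that carry CD62L, CD49b and CD11b to cells with an activated or tissue-resident surface.

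All 6 hosts were B6.129S7-Rag1tm1Mom/J mice, which lack Rag1 and therefore mature lymphocytes with rearranged receptors, but keep NK cells and other innate cells. Each bore an intradermal B16-F10 melanoma and received Pmel CD8+ T cells, marked by Thy1.1, through the retro-orbital route. In 3 mice the transferred T cells had been treated in vitro with CAL-101 (idelalisib, an inhibitor of the PI3K delta isoform), and in 3 with vehicle. The drug was therefore given to the T cells and not to the NK cells described here. Live CD45.2+ cells were sorted from a portion of each resected tumour and stained with a cocktail of barcoded antibodies, and RNA and antibody tags were counted in the same droplets.

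The 6 libraries held 75716841 to 97933109 RNA UMIs (unique molecular identifiers, 1 per captured molecule) and 12748632 to 18237209 antibody tags in annotated cells. Cluster 9 itself is thin: its NK-labelled cells sum to 372492, 707446 and 476447 UMIs in control animals and 220619, 90805 and 119057 in CAL-101 animals. CAL-101 mouse 2 therefore has the least precise values. Of the 801 cells, 7 carry a barcode that another library also holds. Cluster 9 holds 476 further cells labelled as T cells and 7 with other labels.

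The label was checked on its 3 markers. Ncr1 stood at 121 ± 35.6 CPM (UMIs of a gene scaled to a common total per mouse and cluster, mean ± SD over 6 mice), Klrb1c at 227 ± 41.7 and Klra8, the Ly49H receptor, at 137 ± 35.5. In T-labelled cells of cluster 3 the same genes stood at 0.551 ± 0.456, 5.64 ± 3.40 and 1.31 ± 0.662 CPM. Cluster 0 was higher for all 3, at 212 ± 46.7, 433 ± 26.5 and 300 ± 23.1 CPM. When each cell was thinned to 1000 UMIs, which left out 30 of the 801 cells, 38.1% ± 3.92 of cluster 9 cells had a UMI of any of the 3, against 59.1% ± 5.02 in cluster 0 and 0.749% ± 0.468 in cluster 3 T cells. Without thinning, 36.1% ± 5.51 had a Klrb1c UMI, against 86.4% ± 2.38 in cluster 0 and 6.28% ± 3.04 in cluster 3. NK transcripts were thus well above the T cells, but none of the 10 genes with the highest ratio of cluster 9 NK-labelled cells to all other cells is an NK marker. Those 10 were led by Tiam2 (194 against 27.8 CPM), Pde2a (219 against 34.1 CPM) and Eya1 (155 against 24.2 CPM). The cells are called NK-labelled cells below for that reason.

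Cluster 9 cells held much less RNA than cluster 0 cells but about as many antibody tags. The median cell had 1912, 2414 and 2064 RNA UMIs in control animals and 2116, 2523 and 1838 in CAL-101 animals. In cluster 0 the medians per mouse lay between 5370 and 6943. The ratio of the medians was 0.346 ± 0.0256 over 6 mice, and no mouse was above 0.386. Genes detected per cell were 1192 ± 111 against 2345 ± 128. Thinned to 1000 UMIs, the median gene number was 674 ± 5.33 against 667 ± 3.91, so the deficit in genes was not seen at equal depth. The median cluster 9 cell had 21.6% to 31.4% of the median UMIs of all cells of its mouse.

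Antibody tags did not share this deficit. The median was 802 ± 192 tags per cell in cluster 9 and 791 ± 132 in cluster 0, with a ratio of 1.01 ± 0.0954. Only 28 of the 801 cells exceeded the median RNA UMIs of cluster 0 in their mouse, and 604 lay under its 5th percentile.

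**Figure D1:**
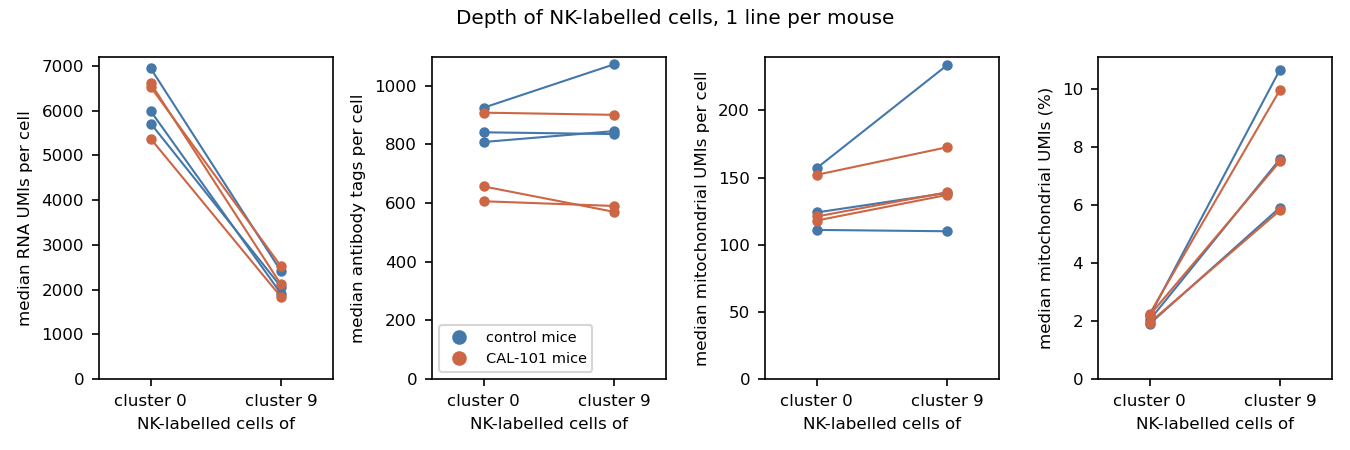
Median RNA UMIs, antibody tags, mitochondrial UMIs and mitochondrial percentage per NK-labelled cell (y axes, from 0) in clusters 0 and 9 (x axis), with 1 line per mouse, blue for control and orange for CAL-101. RNA per cell was lower in cluster 9 in every mouse, while tags and mitochondrial UMIs per cell were not.

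The loss differed between classes of transcript. Transcripts of the mitochondrial genome, which are made inside the organelle, made up 7.91% ± 2.03 of the UMIs of the median cell against 2.09% ± 0.146 in cluster 0. Counted per cell they were about level, at 155 ± 43.2 against 131 ± 19.1 UMIs (ratio 1.17 ± 0.166). Ribosomal protein transcripts, which are short and cytoplasmic, were at 169 ± 25.6 UMIs per cell against 1070 ± 106 (ratio 0.158 ± 0.0170). All remaining transcripts had a ratio of 0.351 ± 0.0337. In 69 of the 801 cells (8.61%) over 20% of the UMIs were mitochondrial, while in cluster 0 the share of such cells per mouse was 0.0425% ± 0.0560.

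Within cluster 9 the cells spread widely in this share. The 242 cells with at most 5% mitochondrial UMIs had a median of 2437 UMIs and 699 tags, the 490 cells between 5% and 20% had 1967 UMIs and 937 tags, and the 69 cells above 20% had 2384 UMIs and 1561 tags. Antibody tags were higher in each bin of higher mitochondrial share, while RNA UMIs were lowest in the middle bin.

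For genes, CPM was compared per mouse between clusters 9 and 0 as the log2 ratio of CPM + 1. Clusters are defined by their genes, so these ratios are a description and carry no test. Of 3890 genes at 50 CPM or more in either cluster, 309 (7.94%) differed over 2-fold in 1 direction in all 6 mice. Of these, 85 (2.19%) were higher in cluster 9 and 224 (5.76%) were lower. The median ratio over all 3890 genes was 0.16, so the ratios below are read against that shift. With the mitochondrially encoded genes left out of the totals, which moves the median to 0.26, 114 genes were higher and 154 lower.

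The 10 genes lowest in cluster 9 relative to cluster 0 had Gzma and Ccl5 at their head and included Tyrobp and the Ly49 receptor gene Klra3. Gzma, which encodes granzyme A, stood at 1710, 1585 and 2166 CPM in control animals and 1179, 396 and 1646 CPM in CAL-101 animals. In cluster 0 it stood between 7491 and 9668 CPM, so the ranges were far apart. Ccl5, a chemokine that recruits T cells and dendritic cells, was at 1606 ± 863 CPM against 8087 ± 1826. Tyrobp, the DAP12 adaptor through which activating receptors signal, was at 518 ± 123 against 1832 ± 62.5 CPM. The other genes named by the rule were Klra3 (log2 ratio -2.20 ± 0.66), Cd7 (28.9 ± 12.8 against 112 ± 31.7 CPM), AW112010 (-1.87 ± 0.46), Tmem37 (-1.85 ± 0.61), Uqcrfs1 (-1.92 ± 1.26), Khdc1a (-2.50 ± 1.88) and Med10 (-2.49 ± 2.68). Med10 had no UMI in CAL-101 mice 2 and 3, and Khdc1a had none in CAL-101 mouse 2, so their ratios depend on the added 1 CPM.

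The 10 genes highest in cluster 9 included genes of the cytoskeleton and cell surface, granzymes and a cytokine. Synpo2, an actin-binding protein, stood at 57.3 ± 17.4 CPM against 2.65 ± 0.644 in cluster 0. Sema6d, a transmembrane semaphorin, was at 186 ± 46.9 against 18.7 ± 5.87 CPM, and Myo10, an unconventional myosin of filopodia, at 225 ± 84.8 against 26.1 ± 5.70 CPM. In cluster 7 these 3 stood at 110, 255 and 567 CPM. Gzmd and Gzme, granzymes D and E, had ratios of 2.70 ± 1.09 and 2.11 ± 0.77, and both stood far higher in cluster 7, at 4525 and 2051 CPM. Filip1 (1.87 ± 0.71), the adhesion molecule gene Alcam (1.68 ± 0.71), Ifitm1 (1.72 ± 0.42), the cytokine gene Tnf (1.59 ± 0.64) and Lars2 (1.96 ± 0.36) completed the 10.

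**Figure D2:**
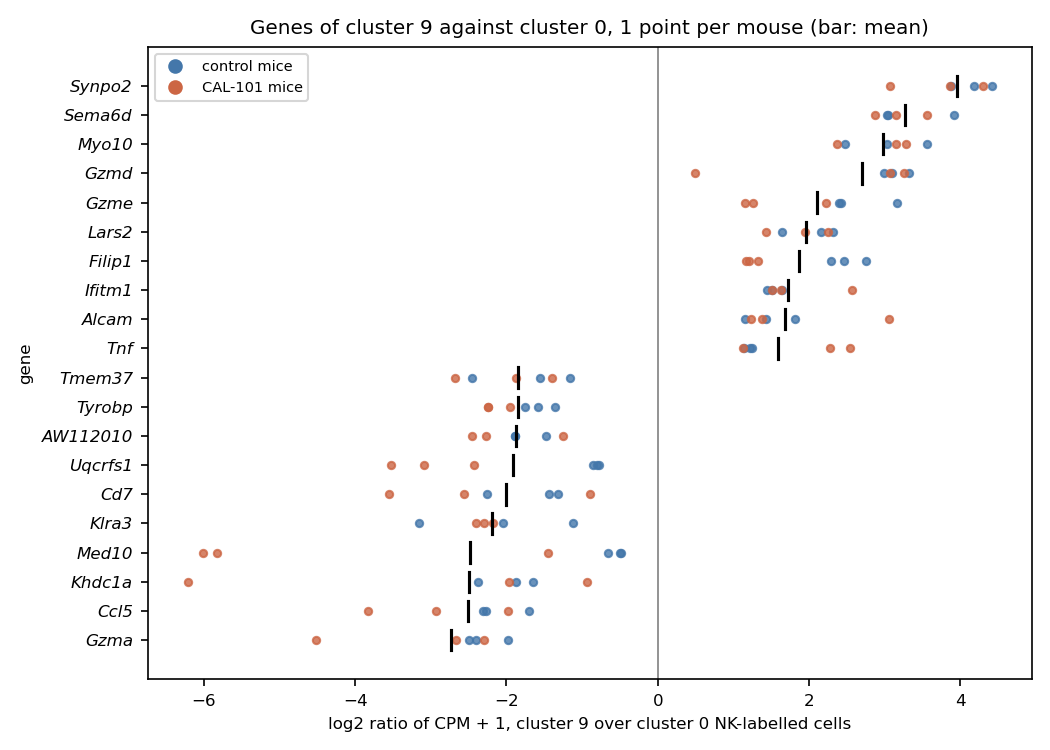
Log2 ratio of CPM + 1 between NK-labelled cells of clusters 9 and 0 (x axis) for the 10 highest and 10 lowest genes (y axis), with 1 point per mouse and a bar at the mean. All 6 mice lie on the same side of 0 for each gene, and Med10 and Khdc1a have far outlying points from mice without a UMI.

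Gene lists showed how far the pattern reached. Against a background of 22.1% of the 3890 genes lower in all 6 mice and 26.7% higher, 15 of 18 NK markers were lower in all 6 mice and none was higher. All 6 measured Ly49 receptor genes were lower, with a median log2 ratio of -1.32. Of 12 cytotoxic granule genes, 9 were lower and 2 higher. Of 12 genes of the actin cytoskeleton, 11 were lower, among them Tmsb4x (5170 ± 698 against 13311 ± 1558 CPM) and Actb (2900 ± 435 against 6050 ± 690 CPM). Of 18 nuclear-encoded respiratory chain genes, 14 were lower and none higher, with a median of -0.88. All 13 mitochondrially encoded genes were higher, with a median of 1.90.

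Transcripts that stay in the nucleus were relatively higher. All 6 measured members of that list were higher in all 6 mice, with a median of 0.82. Malat1, a nuclear noncoding RNA, was at 24032 ± 2905 CPM against 13384 ± 896, and Neat1, the scaffold RNA of paraspeckles, at 312 ± 49.5 against 176 ± 13.2. Genes of cytokine receptors and their signalling were split, with 3 of 8 higher and 2 lower. Stat4, which carries the interleukin 12 signal, was at 789 ± 89.9 against 673 ± 40.6 CPM, and Il2rb, the receptor chain shared by interleukins 2 and 15, at 722 ± 78.8 against 875 ± 61.3 CPM. The transcription factor genes Eomes (97.7 ± 19.2 against 119 ± 13.7 CPM) and Tbx21 (293 ± 62.1 against 272 ± 20.4 CPM), which define NK identity and maturation, lay close to cluster 0.

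Gene length went along with the ratio. Genes were sorted into 4 bins of about equal number by the span of their RefSeq gene model (assembly GRCm38.p6), without the mitochondrial genome. The 957 shortest genes, up to 13745 bases, had a median log2 ratio of -0.64, and the following 3 bins had 0.04, 0.32 and 0.37. The genes over 2-fold lower had a median span of 6584 bases, those over 2-fold higher, mitochondrial genes aside, 49399 bases, and all 3821 genes with a span 37585 bases. Span was known for 62 of those 72 higher genes. Of 80 ribosomal protein genes, 76 were lower in all 6 mice.

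Markers of other cells were examined beside these differences. The summed level of 10 T cell genes was 2275 ± 186 CPM in cluster 9 and 1360 ± 142 in cluster 0, and it was higher in 6 of 6 mice. Per cell it was lower, at 5.57 ± 0.332 against 9.46 ± 0.856 UMIs. None of the 10 was at 0 in cluster 9, and the sums ranged from 1920 to 2389 CPM in control animals and from 2236 to 2436 in CAL-101 animals. Innate lymphoid cell genes summed to 403 ± 81.6 against 222 ± 24.2 CPM. Dendritic cell genes summed to 134 ± 87.2 against 50.5 ± 16.8 CPM, higher in 6 of 6 mice, with Xcr1 at 0. Per cell they were at 0.337 ± 0.238 against 0.359 ± 0.150 UMIs. Monocyte and macrophage genes were at 13.9 ± 10.1 CPM with C1qa, C1qb and C1qc at 0, and neutrophil genes at 11.6 ± 8.45 CPM with Csf3r, Retnlg, G0s2 and Cxcr2 at 0. All 5 fibroblast genes were at 0. Melanoma genes were at 11.3 ± 9.07 CPM. The part of these transcripts in the differences between the clusters was not tested.

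The antibody panel shows these cells by their surface. It holds 102 antibodies, of which 7 are isotype controls, and each antibody is read as its share of a cell's tags. The antibodies on which the following results turn were recognised by these 15-base barcodes, printed 5′ to 3′ from the deposited antibody reference.
CD61: ttctttacccgcctg
CD55: attgttgtcagacca
KLRG1: gtagtaggctagacc
CD90.2: ccgatcagccgttta
CD62L: tgggcctaagtcatc
CD49b: cgcgttagtagagtc
NK1.1: gtaacattactcgtc
CD11b: tgaaggctcatttgt
CD45R/B220: cctacacctcataat
Isotype controls made up 0.471% ± 0.0301 of the tags in cluster 9 and 0.516% ± 0.0538 in cluster 0.

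Of the 102 antibodies, 10 (9.8%) differed over 1.5-fold from cluster 0 in the same direction in all 6 mice, 4 lower and 6 higher. The sources used here do not say whether the antibodies entered the clustering, so this too is a description with no test. Scaled to the isotype controls instead of all tags, 1 was lower and 10 were higher. Without cells of over 20% mitochondrial UMIs 2 were lower and 5 higher. With control mouse 2 left out, 1 was lower and 6 were higher.

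The lower proteins were CD62L, CD49b, NK1.1 and CD11b. CD62L (L-selectin, which lets lymphocytes enter lymph nodes) took 1.33%, 1.09% and 1.33% of the tags in control animals and 2.28%, 1.40% and 2.39% in CAL-101 animals. In cluster 0 it took 4.26% to 6.36%. The median cluster 9 cell was lower still, at 0.425% ± 0.306 against 3.29% ± 0.809. CD49b (integrin alpha 2, an NK marker) was at 4.95% ± 0.743 against 7.50% ± 0.974, NK1.1 at 0.639% ± 0.0690 against 0.973% ± 0.116, and CD11b (an integrin of mature NK cells) at 0.656% ± 0.162 against 0.998% ± 0.0789. Each of these 4 was lower in every mouse in the median cell as well. CD49b, NK1.1 and CD11b lay near the 1.5-fold mark, with log2 ratios of -0.60, -0.61 and -0.64. Scaled to the isotype controls they were at -0.47, -0.48 and -0.51 and did not pass it, while CD62L did (-1.61).

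The higher proteins were CD61 (integrin beta 3), MHC class II (I-A/I-E), KLRG1 (an inhibitory receptor of activated NK cells), CD90.2 (Thy1.2, which host cells but not the transferred Thy1.1 cells carry), Ly-6A/E and CD31. CD61 took 3.33%, 4.68% and 3.33% of the tags in control animals and 1.68%, 3.01% and 2.29% in CAL-101 animals, against 0.749% to 1.31% in cluster 0. CD90.2 was at 3.36% ± 0.665 against 1.99% ± 0.280, and KLRG1 at 2.18% ± 0.506 against 1.17% ± 0.0590. In the median cell CD61 (0.951% ± 0.316 against 0.442% ± 0.0889) and CD90.2 (2.25% ± 0.327 against 1.23% ± 0.220) were higher in 6 of 6 mice. KLRG1 was close to cluster 0 in the median cell (0.747% ± 0.178 against 0.685% ± 0.0942). MHC class II was at 0.0387% ± 0.0434 in the median cell, against 0.269% ± 0.169 of the summed tags. Klrg1 RNA went the other way from the summed protein, at 49.2 ± 28.9 against 102 ± 19.0 CPM.

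Cluster 7, the NK cells high in CD90.2 and CD55, lay beyond cluster 9 on the same proteins. Its tags were 6.47% CD61, 4.63% KLRG1, 4.78% CD90.2, 0.340% CD62L and 2.45% CD49b. The cluster 9 values of these 5 antibodies lay between those of clusters 0 and 7.

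**Figure D3:**
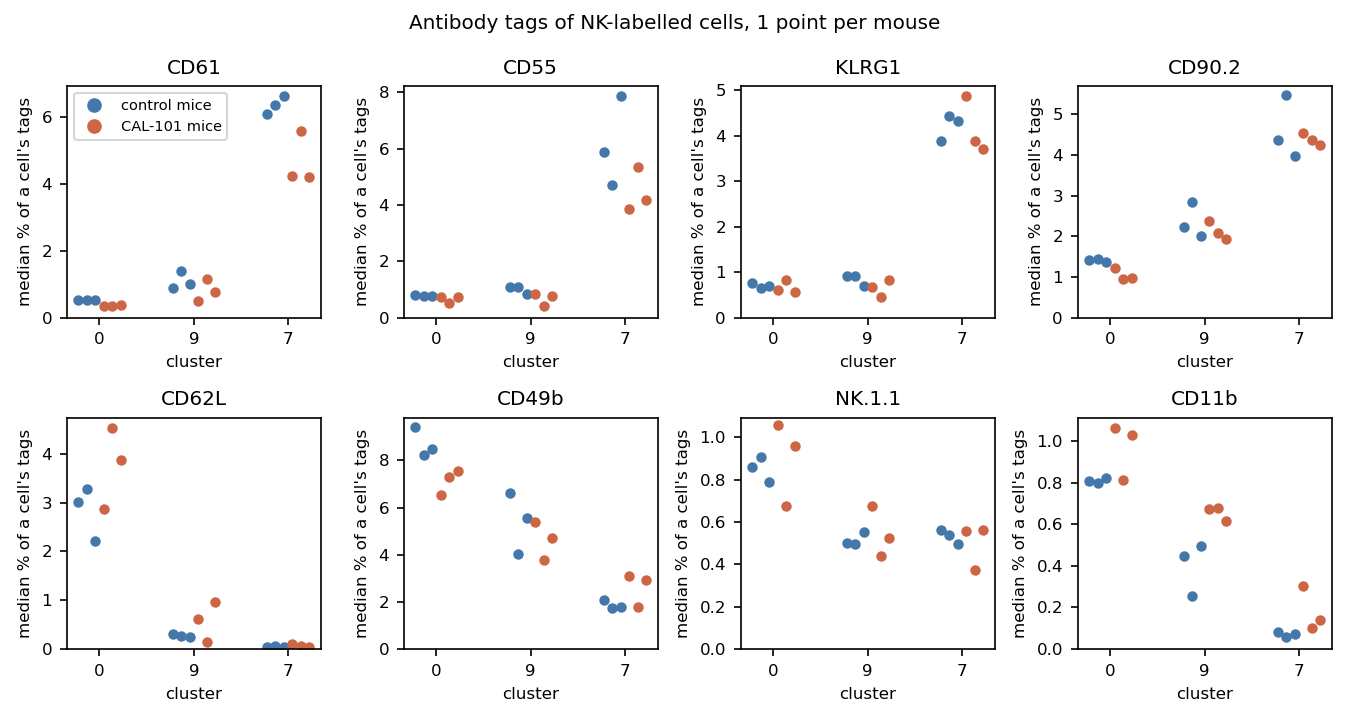
Share of a cell's tags (y axis, %, from 0) taken by 8 antibodies in the median NK-labelled cell of clusters 0, 9 and 7 (x axis), with 1 point per mouse, blue for control and orange for CAL-101. CD61 and CD90.2 were higher and CD62L, CD49b, NK1.1 and CD11b lower in cluster 9 than in cluster 0 in all 6 mice, while CD55 and KLRG1 medians overlapped those of cluster 0.

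Cluster 9 did not form 1 level of these proteins. Over its 797 cells with at least 100 tags, CD61 had a 25th percentile of 0.337%, a median of 0.968%, a 75th percentile of 3.53% and a 90th of 7.38%. CD62L ran from a 25th percentile of 0.0695% to a 90th of 5.47%, and CD49b from 1.98% to 11.8%. A value of 3% CD61 was chosen after the values were seen, to describe both ends of this range. It left 222 cells (27.9%) above, while 102 (12.8%) lay between 2% and 4%. In cluster 0, 5.86% of cells were above it, and in cluster 7, 80.0%.

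**Figure D4:**
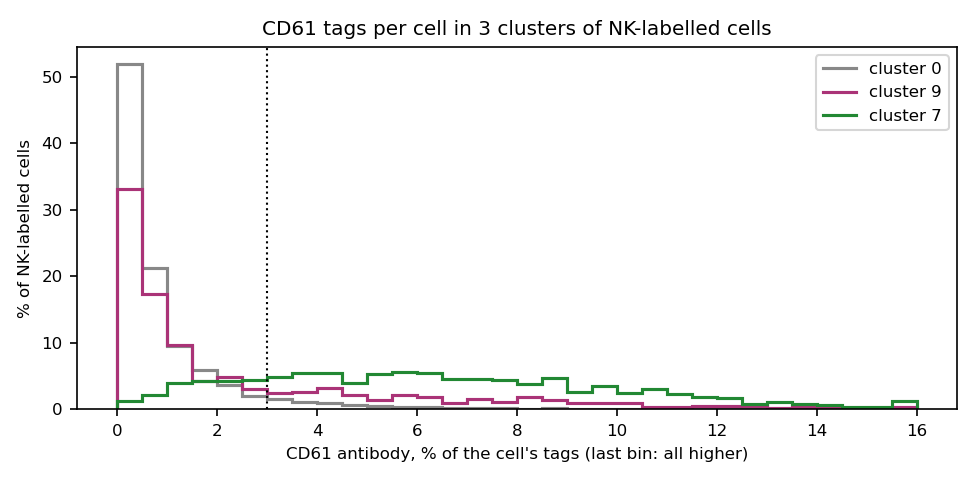
Percentage of NK-labelled cells (y axis) by the share of their tags from the CD61 antibody (x axis, %) in clusters 0, 9 and 7, pooled over 6 mice, in bins of 0.5 with the last bin holding all higher values. The dotted line marks 3%, above which lie 5.86% of cluster 0, 27.9% of cluster 9 and 80.0% of cluster 7 cells.

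The cluster 9 cells above 3% CD61 were nearer to cluster 7 than the cells below it in 4 other proteins. These were named after their values were seen but did not enter the choice of cells. The cells above 3% numbered 44, 97 and 51 in control animals and 12, 9 and 9 in CAL-101 animals. The cells above 3% had 0.153% ± 0.0674 CD62L, 2.54% ± 0.714 CD49b, 4.75% ± 1.77 CD55 and 3.74% ± 0.994 KLRG1. Cluster 7 had 0.340%, 2.45%, 9.31% and 4.63% of these, so its CD55 was well above theirs. The cells below 3% had 2.46% ± 0.499 CD62L, 6.54% ± 1.13 CD49b, 1.19% ± 0.320 CD55 and 1.27% ± 0.191 KLRG1. These 4 antibodies differed in the same direction in 6 of 6 mice.

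Some RNAs differed in the same direction in every mouse between these cells, and others did not. Synpo2 was at 147 ± 29.2 CPM above 3% CD61 and 20.6 ± 16.7 below, Sema6d at 409 ± 95.3 and 98.8 ± 62.0, and Myo10 at 543 ± 143 and 82.2 ± 72.8. Gzmc, granzyme C, was at 1984 ± 596 and 766 ± 312 CPM. Ccl5 was at 213 ± 111 above and 2260 ± 1278 below, and Klf2, a transcription factor that drives CD62L expression, at 86.1 ± 30.5 and 265 ± 34.7. All of these lay on the same side in 6 of 6 mice. The RNAs of 3 proteins that differed did not follow them: Cd55 was higher above 3% in 3 mice and lower in 3, Klrg1 higher in 2 and lower in 3, and Thy1, which encodes CD90, higher in 2 and lower in 4 (126 ± 56.8 against 139 ± 41.7 CPM). Gzmb was lower above 3% in 5 of 6 mice, and Gzmf was higher in 3 and lower in 2. Eomes was about equal, at 96.1 ± 21.0 and 98.7 ± 21.4 CPM. Granzymes in cluster 7 were far higher than in the cells above 3% (12199 CPM of Gzmc and 4525 of Gzmd, against 1984 and 483).

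Depth and mitochondrial share moved with CD61 as well. The median cell above 3% had 2537 ± 366 UMIs, 1281 ± 321 tags and 12.9% ± 2.65 mitochondrial UMIs, and the median cell below had 2016 ± 302, 713 ± 143 and 6.71% ± 1.87. Of the cells with at most 5% mitochondrial UMIs 8.37% were above 3% CD61, and of those over 20% mitochondrial 69.6% were. The part of depth and mitochondrial share in the split was not tested.

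The 476 cells of cluster 9 labelled as T cells carried CD49b, an NK marker, and CD90.2, which host cells carry. Their tags were 4.06% CD49b, 3.42% CD90.2 and 0.439% CD8b, against 0.291%, 0.0643% and 5.19% in T-labelled cells of cluster 1. They held 205 ± 134 CPM of Klra8.

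CAL-101 against control asks whether NK-labelled cells of cluster 9 differed between tumours whose transferred T cells had or had not met the drug. Cluster 9 held 7.86%, 7.26% and 7.91% of the NK-labelled cells of the control mice and 4.69%, 5.78% and 5.57% of those of the CAL-101 mice. Every CAL-101 mouse was below every control mouse. The means were 7.68% ± 0.359 and 5.35% ± 0.578, a difference of -2.33 percentage points. A two-sided exact permutation test gave p = 0.1, the smallest that 3 mice against 3 allow, and an adjusted p of 0.4 over the 4 measures tested this way.

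The other 3 measures overlapped between the groups. Median RNA UMIs were 2130 ± 257 in control and 2159 ± 345 in CAL-101 mice (exact permutation p = 0.9, adjusted p = 0.9). The median mitochondrial share was 8.06% ± 2.41 and 7.77% ± 2.09 (exact permutation p = 0.7, adjusted p = 0.9). Median antibody tags were 918 ± 134 and 687 ± 185 (exact permutation p = 0.3, adjusted p = 0.6). A design of 3 against 3 cannot pass a threshold of 0.05.

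For genes, summed counts per mouse were tested with edgeR's quasi-likelihood test with Benjamini-Hochberg adjustment. Of 4695 genes, 36 (0.767%) passed an adjusted p of 0.05, 15 higher (0.319%) and 21 lower (0.447%) in CAL-101 mice, and 493 had an unadjusted p under 0.05. Of the 36, 31 had groups that did not overlap, as had 15.5% of all genes tested. Mice are separate animals, but 33 to 254 cells each stand behind these sums.

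The smallest adjusted p-values included granzymes of a family on chromosome 14. Gzmf, granzyme F, was at 467, 300 and 527 CPM in control animals and 27.2, 0 and 16.8 in CAL-101 animals. These are 174, 212 and 251 UMIs against 6, 0 and 2. It fell by 4.54 ± 0.37 (log2, SE), with an edgeR adjusted p of 3.09e-16. Gzmd was at 311, 298 and 342 CPM against 58.9, 88.1 and 16.8, and fell by 2.60 ± 0.29 (adjusted p = 4.04e-10, edgeR). Gzme was at 142, 113 and 143 against 40.8, 22.0 and 16.8 CPM and fell by 2.15 ± 0.37 (adjusted p = 1.01e-04, edgeR). Gzmg was at 77.9, 77.7 and 60.9 CPM against 8.20 ± 7.22 in CAL-101 animals (29, 55 and 29 against 3, 1 and 0 UMIs) and fell by 2.95 ± 0.56 (adjusted p = 5.46e-04, edgeR). In none of the 4 did the groups overlap. Without the cells of over 20% mitochondrial UMIs Gzme was not called (adjusted p = 0.0540, edgeR). Gzmf, Gzmd and Gzmg kept their calls under each of the 13, 13 and 11 other settings that gave them an adjusted p. An alternative fit with DESeq2 gave none of the 4 an adjusted p.

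These 4 genes are close copies, so reads may be shared between them and the separate values are uncertain. How reads were assigned was not tested. Their promoters are alike as well: over the 250 bases before the annotated starts, aligned bases were 85.7% to 95.6% identical between pairs. The stretches below (RefSeq, GRCm38.p6, minus strand, 5′ to 3′) carry in capitals the longest run that all 4 share, of 36 bases, which no other of 27025 promoters of that length holds.
Gzmd, chr14:56132604-56132703: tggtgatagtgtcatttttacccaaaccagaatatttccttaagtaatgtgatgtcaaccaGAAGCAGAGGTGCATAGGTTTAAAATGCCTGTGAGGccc
Gzme, chr14:56120637-56120736: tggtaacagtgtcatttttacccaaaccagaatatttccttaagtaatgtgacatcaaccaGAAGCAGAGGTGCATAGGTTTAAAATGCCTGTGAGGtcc
Gzmf, chr14:56211439-56211538: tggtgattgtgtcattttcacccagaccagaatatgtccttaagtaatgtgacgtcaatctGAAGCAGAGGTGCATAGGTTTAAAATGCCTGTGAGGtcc
Gzmg, chr14:56159606-56159705: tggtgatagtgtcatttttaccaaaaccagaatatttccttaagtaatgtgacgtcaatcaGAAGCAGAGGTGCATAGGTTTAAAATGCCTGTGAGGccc
The match describes the sequence and no factor was looked for.

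Granzyme genes outside this group did not pass the test. Gzma was at 1820 ± 306 CPM in control and 1074 ± 631 in CAL-101 mice, a log2 difference of -0.77 ± 0.21 (adjusted p = 0.0650, edgeR). None of the 13 tested cytotoxic granule genes was called, nor any of 18 NK markers, 4 Ly49 receptors or 11 activating receptors and adaptors. Tyrobp was at 618 ± 72.8 against 418 ± 48.0 CPM (log2 -0.61 ± 0.19, adjusted p = 0.134, edgeR).

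Gzmd and Gzme were higher in the cells over 3% CD61 in 6 of 6 mice, and those cells made up 30.1% ± 7.12 of cluster 9 in control mice and 19.2% ± 7.44 in CAL-101 mice. The fit was also repeated on cells under 3% CD61, an alternative added after seeing the data. Gzme and Gzmg were among 6 of the 36 genes without a result in that fit. The part of the CD61 share in the falls was not tested. Under 3% CD61, Gzmf fell by 3.54 ± 0.39 (adjusted p = 7.68e-07, edgeR) and Gzmd by 3.51 ± 0.69 (adjusted p = 0.0110, edgeR). Of the 16 genes called there, 13 were among the 36. Gzmf stood at 273 ± 13.7 CPM in those cells of control mice and 18.2 ± 16.5 in those of CAL-101 mice.

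The other genes named among those that fell were of several kinds. Lgals3, which encodes the lectin galectin 3, was at 271, 212 and 325 against 81.6, 143 and 84.0 CPM and fell (adjusted p = 1.17e-04, edgeR). Ctla2a, a cysteine protease inhibitor of lymphocytes, was at 859, 667 and 873 against 295, 341 and 428 CPM and fell by 1.23 ± 0.20. Serpinb9b, a serpin of the family that inhibits granzymes, fell by 1.37 ± 0.35, Filip1 by 1.58 ± 0.37 and Ifitm3, an interferon-induced membrane protein, by 1.20 ± 0.31. Serpinb9b lost its call under 6 of 13 other settings, Ifitm3 under 5 of 13 and Filip1 under 4 of 12. Lgals3 and Ctla2a kept theirs under all 13 and 14 settings that gave an adjusted p. Among these genes, DESeq2 gave an adjusted p for Ctla2a only. Ccl5 fell by 1.13 ± 0.22 (adjusted p = 7.95e-04, edgeR) but its groups overlapped, at 2032, 1594 and 2913 against 675, 639 and 1781 CPM. Without CAL-101 mouse 1 it was not called (adjusted p = 0.194, edgeR). DESeq2 gave Ccl5 an adjusted p as well and did not call it.

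Hsph1, Hspa1a and Hspa1b, of the heat shock response, rose. Hsph1, a nucleotide exchange factor of HSP70, was at 37.6, 33.9 and 58.8 CPM in control animals and 154, 187 and 210 in CAL-101 animals, a log2 rise of 2.01 ± 0.29 (adjusted p = 1.15e-06, edgeR). Hspa1a, an inducible HSP70 gene, was at 32.2, 33.9 and 18.9 against 99.7, 66.1 and 134 CPM and rose by 1.77 ± 0.36 (adjusted p = 0.00153, edgeR), a call lost without CAL-101 mouse 1 or 3 (adjusted p up to 0.0942, edgeR). Hspa1b, its near-identical neighbour, was at 18.8, 8.48 and 8.40 against 72.5, 66.1 and 92.4 CPM and rose by 2.72 ± 0.47 (adjusted p = 1.01e-04, edgeR). In CPM no CAL-101 mouse overlapped a control mouse for these 3, but the UMIs were few. Hsph1 had 14, 24 and 28 UMIs in control animals and 34, 17 and 25 in CAL-101 animals. Hspa1a had 12, 24 and 9 against 22, 6 and 16 UMIs, and Hspa1b 7, 6 and 4 against 16, 6 and 11. Above 3% CD61, Hspa1a was at 33.9 ± 26.2 CPM in control and 274 ± 132 in CAL-101 mice. Those CAL-101 cells numbered 12, 9 and 9. Below 3%, Hspa1a was at 23.3 ± 11.9 and 39.8 ± 43.0 CPM. Hsph1 was at 32.5 ± 23.8 and 133 ± 49.1 there, and Hspa1b at 12.5 ± 9.92 and 63.0 ± 17.5. In the fit under 3%, Hsph1 rose by 1.93 ± 0.42 (adjusted p = 0.0217, edgeR), while Hspa1a and Hspa1b had no result. The part of the CD61 share in these rises was not tested. Hsph1, Hspa1a and Hspa1b were 3 of the 17 tested genes of the dissociation and stress list, of which none was called lower. The list had a median log2 difference of 0.05 against 0.00 over all genes. Other chaperones of the list were not called, with Hspa8 at 878, 862 and 896 against 961, 1013 and 731 CPM and Hsp90aa1 at 464, 300 and 367 against 417, 683 and 563 CPM. Jund, a transcription factor gene of the list, was at 1141, 988 and 1035 against 925, 848 and 832 CPM (log2 -0.31 ± 0.18, adjusted p = 0.560, edgeR). The cold-inducible gene Rbm3 was at 651 ± 103 against 413 ± 39.4 CPM (log2 -0.67 ± 0.19, adjusted p = 0.0698, edgeR).

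Hspa1a and Hspa1b are near-identical copies, and how their reads were assigned was not tested, so their separate values are uncertain. Their promoters are 98.8% identical over 250 bases. The stretch below (RefSeq, GRCm38.p6, chromosome 17, minus strand, 5′ to 3′) is the same in both, at chr17:34972207-34972306 for Hspa1a and chr17:34959289-34959388 for Hspa1b.
Hspa1a and Hspa1b: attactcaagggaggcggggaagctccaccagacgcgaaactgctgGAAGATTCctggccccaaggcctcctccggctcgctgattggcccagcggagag
The capitals mark the sequence GAANNTTC, 2 facing units of the kind that heat shock factor binds, which reads alike on both strands. Within the 250 bases before the start, 6.78% of 27025 promoters hold it. Both orders of the units were searched for, and 12.9% hold this one or TTCNNGAA, the order found in the Hsph1 promoter. The match is a description of these letters and says nothing of binding.

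The remaining genes named among those that rose were Prkcb, a protein kinase C, at 255, 155 and 199 against 431, 452 and 420 CPM (log2 1.08 ± 0.20), and Pmepa1, Rai1, Rbpms, Insyn2b and Nr6a1, with rises of 1.09 to 1.89. Prkcb kept its call under all 13 other settings that gave it an adjusted p, which DESeq2 did not. The other 5 lost theirs under 6 to 9 of 13. Inpp4b, a phosphatase of the phosphoinositide pathway, rose by 0.99 ± 0.21 (adjusted p = 0.00272, edgeR), and lost its call under 3 of 13 settings.

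**Figure D5:**
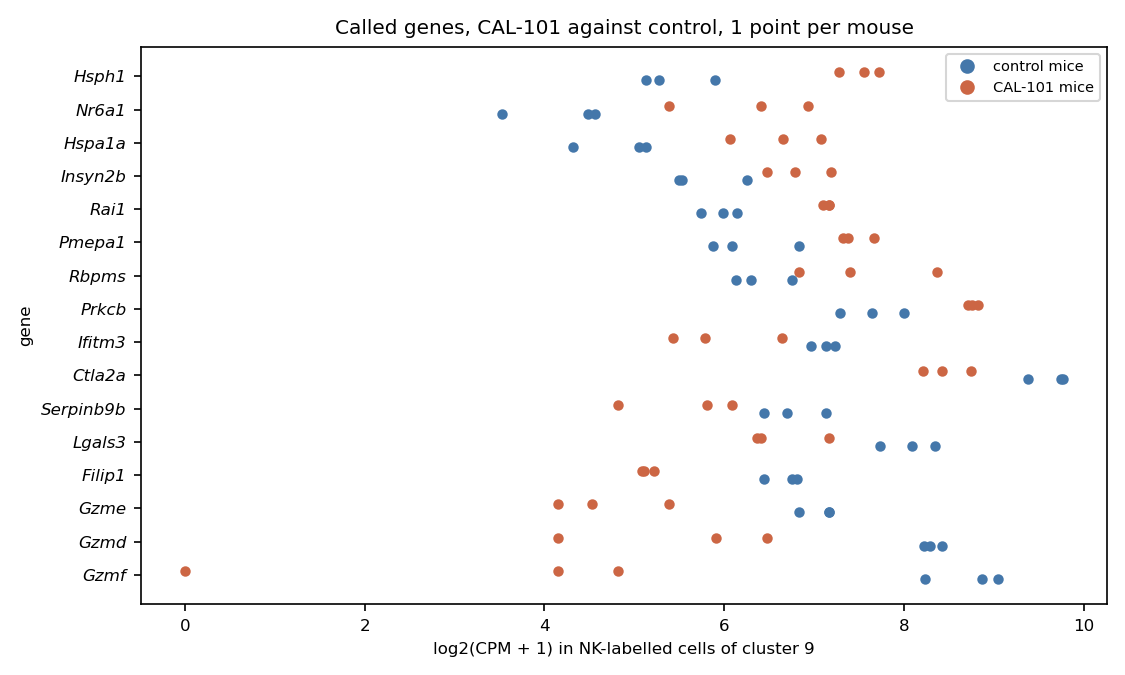
Log2 of CPM + 1 in NK-labelled cells of cluster 9 (x axis) for the 16 called genes of largest change at 50 CPM or more without overlap (y axis), with 1 point per mouse, blue for control and orange for CAL-101. The 2 groups do not overlap for any of the 16, and the Gzmf point at 0 is the CAL-101 mouse without a UMI.

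Among the lists, calls were few. Cytokines and chemokines had 1 gene lower of 9 (Ccl5) and early NK maturation 1 lower of 9 (Ctla2a). Type I interferon genes (8 tested), nuclear respiratory chain (18), mitochondrially encoded genes (13), proliferation (7), glycolysis and hypoxia (12), MHC class I (10) and checkpoint receptors (4) had none. Tnf was at 53.7, 69.3 and 67.2 CPM against 163, 154 and 67.2 (log2 1.00 ± 0.29, adjusted p = 0.0868, edgeR), and Itga2, which encodes CD49b, at 42.0 to 48.3 CPM in control and 67.2 to 154 CPM in CAL-101 mice (log2 1.08 ± 0.33, adjusted p = 0.134, edgeR).

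In cluster 0, 610 of 12445 genes (4.9%) were called by the same test. Thinned to the UMI totals of cluster 9, cluster 0 gave 23 calls of 4506, of which 5 were among the 36 of cluster 9. Of the 36, 23 were also called in cluster 0, which is 63.9% of the cluster 9 calls and 5.76% of the 399 cluster 0 calls that cluster 9 could test. Gzmf fell by 1.91 ± 0.33 in cluster 0 (adjusted p = 0.00489, edgeR) and Gzmd by 2.22 ± 0.18 (adjusted p = 2.30e-05, edgeR). Hsph1 rose by 1.04 ± 0.11 there and Hspa1a by 1.88 ± 0.18.

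The difference of the effects between the clusters was tested per gene with limma on the per-mouse log2 ratio of the clusters. None of 4695 genes passed (0%), the smallest adjusted p was 0.361, and 286 had an unadjusted p under 0.05. On simulated counts this limma test recovered 86% of changes of log2 2 and 10% of those of log2 1. The absence of calls therefore does not show that the effects were equal. An edgeR interaction term with the mouse as a block called 9 genes, among them Gzmf (-2.72 ± 0.45), Gzmc, Klrd1, Spp1, Xcl1 and Uqcrfs1 lower and Abl1 and Aph1c higher in cluster 9 relative to cluster 0. The number of genes with a different effect thus depended on the model.

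Of 102 antibodies, 2 (1.96%) passed in CAL-101 against control by edgeR's quasi-likelihood test, while 13 had an unadjusted p under 0.05 and 22.5% had groups that did not overlap. CD45R/B220, a glycosylated form of CD45 on B cells and some activated NK cells, took 1.60%, 1.34% and 1.62% of the tags in control animals and 0.629%, 0.752% and 0.390% in CAL-101 animals. It fell by 1.51 ± 0.20 (log2, SE, adjusted p = 0.0189, edgeR), and by 1.54 ± 0.11 in cluster 0. CD11b took 0.520%, 0.474% and 0.539% against 0.811%, 0.828% and 0.765% and rose by 0.52 ± 0.08 (adjusted p = 0.0271, edgeR). Its log2 difference in cluster 0 was 0.13 ± 0.10 (adjusted p = 0.484, edgeR), and the difference between the clusters was not tested for antibodies.

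Both calls were lost when cells of over 20% mitochondrial UMIs were left out (adjusted p = 0.117 and 0.157, edgeR). Leaving out control mouse 1 or 3, or the first CAL-101 mouse, had the same result, with adjusted p up to 0.102 for CD45R/B220 and 0.144 for CD11b (edgeR). CD11b also lost its call when control mouse 2 (adjusted p = 0.150, edgeR) or the third CAL-101 mouse (adjusted p = 0.114, edgeR) was left out. The 2 antibodies kept their direction in each case. CD55, the complement decay-accelerating factor, took 3.72%, 3.33% and 2.75% against 2.05%, 2.12% and 1.33% (log2 -0.98 ± 0.21, adjusted p = 0.0885, edgeR). CD61 (log2 -0.84 ± 0.26), CD90.2 (-0.55 ± 0.19) and CD62L (0.59 ± 0.24) had groups that did not overlap and adjusted p-values of 0.253, 0.253 and 0.341 (edgeR). The share of cells over 3% CD61 was 25.9%, 38.3% and 26.2% in control animals and 12.6%, 27.3% and 17.6% in CAL-101 animals, and those ranges overlapped.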

How the data were processed

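RNA UMI counts and antibody tag counts per cell were deposited by the authors as 6 matrices, written by version 7.1.0 of Cell Ranger, per the file headers. The submitters' processing notes name Cell Ranger, Seurat and the build mm10, without Seurat's settings. Clusters and labels come from the authors' deposited annotation, whose cells have at least 500 UMIs. No doublet caller was run here, and the sources do not say how doublets were treated. Free RNA was not corrected.

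Cells were taken by cluster and label, and counts were summed per mouse. CAL-101 against control was tested on the sums with edgeR 4.0.16 (TMM scaling, low counts filtered, no covariates), the difference between clusters with limma 3.58.1 (prior count 2), and per-mouse values with exact permutation tests. DESeq2 1.42.0 was an alternative. The test scripts were tested on simulated data. Ratios between clusters 9 and 0 used CPM + 1, and cells were thinned to 1000 UMIs where stated, with at most 300 cells per mouse of other clusters.

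Named genes were the 10 largest ratios each way at 50 CPM or more with 6 mice in 1 direction (without ribosomal protein, mitochondrial, Gm and Rik entries), the 8 largest called changes each way at 50 CPM or more without overlap between groups, and leading members of each gene list. Gzmg, Inpp4b, Hspa8, Hsp90aa1, Jund, the 3 leading genes against all other cells, the interaction genes and the genes and antibodies of the split at 3% CD61 were also named after their values were seen. The members and gene lists were chosen with earlier results of these data known. Replicates of different mice differed by more than counting noise (chi-square per degree of freedom 1.80 to 2.77). P-values cover the spread between these 6 mice only, and fewer cells and less RNA per cell cannot be told apart in summed counts. The 4 measures tested by permutation formed 1 family for adjustment.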

Additional observations from a re-analysis of the deposited data

How the results depend on the processing

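With 33 to 254 cells per mouse, low genes of cluster 9 were not measurable. The 36 calls of CAL-101 against control became 4 with DESeq2 (250 unadjusted), which gave no adjusted p for 29 of the 36, 22 without cells of over 20% mitochondrial UMIs, 16 under 3% CD61 (an alternative added after seeing the data) and 18 to 43 without 1 mouse (18 without control mouse 3, 20 without CAL-101 mouse 3, 22 without CAL-101 mouse 1). Same-numbered mice deviated with correlations of -0.023, -0.048 and 0.043, and differently numbered ones with -0.039 to 0.066. No pairing by number was seen, but sums of so few cells cannot exclude one. A replicate block gave 29 genes in cluster 9, 25 of them shared, 200 in cluster 0 and 0 antibodies (9 unadjusted). Cluster 0 calls were 610, 1077 without the filter, 23 when thinned and 177 to 761 without 1 mouse. The 2 antibody calls became 6 with DESeq2, 0 without cells of over 20% mitochondrial UMIs (12 unadjusted) and 0 to 4 without 1 mouse. The difference of effects stayed at 0 with limma and was 9 with the edgeR interaction term. The difference in median UMIs (28.8) became -3.54 as a mean and ranged from -153 to 189 without 1 mouse, and that in mitochondrial percent (-0.293) ranged from -1.40 to 1.01. Antibodies of cluster 9 against 0 numbered 7 by the median cell, an alternative also added after seeing the data, and 7 to 13 without 1 mouse. The cause of these changes was not tested. The share of NK cells in cluster 9 and the depth ratio kept their direction under every alternative run.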
